A study of Mus musculus with 2 samples.

Results

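Keratin-associated proteins form the matrix in which the keratin filaments of the hair shaft are embedded, and they are made by the cells of the hair cortex and cuticle as these cells differentiate and die. The cysteine-rich members are joined to hair keratins and to each other by disulfide bonds. Members rich in glycine and tyrosine are small proteins of the hair cortex. The intestinal wall carries no hair follicles.

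The keratin-associated protein genes were taken as every gene symbol that starts with Krtap and a digit, which gave 56 of the 40879 gene symbols counted in each library. RNA was prepared from intestine tissue of wild-type (WT) mice and of mice heterozygous for endoplasmic reticulum aminopeptidase 1 (ERAP1+/-), an enzyme that trims peptides for presentation to T cells. Each genotype is represented by 1 library, made from the mixed RNA of 3 mice and sequenced from the 3′ ends of its polyadenylated transcripts. Both groups were on a C57BL/6 background and were 8 weeks old when the study began, and the sample labels name no treatment. The paper describes its RNA sequencing comparison of the genotypes as made at steady state. The study also had groups given dextran sulfate sodium, with or without sulfasalazine. The heterozygous mice came from the tm1a allele of Erap1 crossed with a Cre-expressing strain that is not named in the sources used here, so that the exons 6 and 7 between the loxP sites were removed. The mouse line came from 1 embryonic stem cell clone.

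The counted reads summed to 8114826 in WT and to 8907515 in ERAP1+/-. Erap1 had 229 reads in WT and 2 in ERAP1+/-, a normalised level of 0.730% of WT (95% interval 0.0878% to 2.67%). A heterozygote keeps 1 intact copy, and reads from the 3′ end lie outside the deleted exons, so this count does not check the deletion and lies well below what 1 intact copy would be taken to give. The name ERAP1+/- below therefore stands for the library labelled so. Each of the 14 intestinal epithelial markers examined had at least 10 reads, and their summed level in ERAP1+/- was 89.8% of WT (89.1% to 90.6%). Lgals4, a colonic galectin, had 22956 and 27348 reads. Past 2-fold, 1 marker was higher, Muc2, the gel-forming mucin of goblet cells (12020 and 32939), and 2 were lower, the carbonic anhydrase Car4 (15163 and 8391) and Krt20, a keratin of surface epithelium (5156 and 2674), or 1 with scaling by the total count. With 1 library per genotype, no difference has a replicate check and no p-value is given. Intervals are exact 95% intervals for counted reads and cover counting error only. The mice within a pool cannot be told apart, and in bulk tissue fewer cells of a type cannot be told apart from less RNA per cell.

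The family was read almost entirely in the WT library. Summed over the 56 genes there were 3428 reads in WT, or 0.0422% of the library (0.0408% to 0.0437%), and 7 reads in ERAP1+/-, or 7.86e-05% (3.16e-05% to 0.000162%). After scaling to a common library size, with sizes corrected for composition by the TMM method and values written as CPM, the summed level was 441 CPM in WT and 0.752 CPM in ERAP1+/-. The ERAP1+/- level was 0.171% of WT (0.0685% to 0.352%), a 586-fold difference (284 to 1459). Reads came from many members: 47 of the 56 genes had a read, all 47 of them in WT and 3 of them also in ERAP1+/-. Krtap3-1 had 3 reads in ERAP1+/-, Krtap4-16 had 3 and Krtap13 had 1.

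Of the 47 genes, 36 had at least 10 reads over both libraries and 11 had 1 to 9, and 9 had none. All of the 36 were more than 2-fold lower in ERAP1+/-, where 8.78% of the 16142 genes with at least 10 reads were lower by that rule. No read in ERAP1+/- was counted for 34 of the 36 (94.4%), against 1.41% of the same 16142 genes, and the members made up 14.9% of the 228 genes with this pattern. A member with reads in WT alone could reach 10 reads only by differing, so these counts describe the family and do not test it. On the scale of log2(CPM + 1), 8 members reached a level of 4 and all 8 were more than 2-fold lower, against 3.96% of the 8013 genes at that level. Krtap6-1 lay just inside that level in WT at 4.03 and Krtap3-2 just outside at 3.99. Over genes with at least 10 reads, with a count of 0 set at 3 reads, the median log2 ratio of ERAP1+/- to WT was -4.74 for the members and 0.0034 for all genes, or 0.13 for all genes with scaling by the total count.

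**Figure D1:**
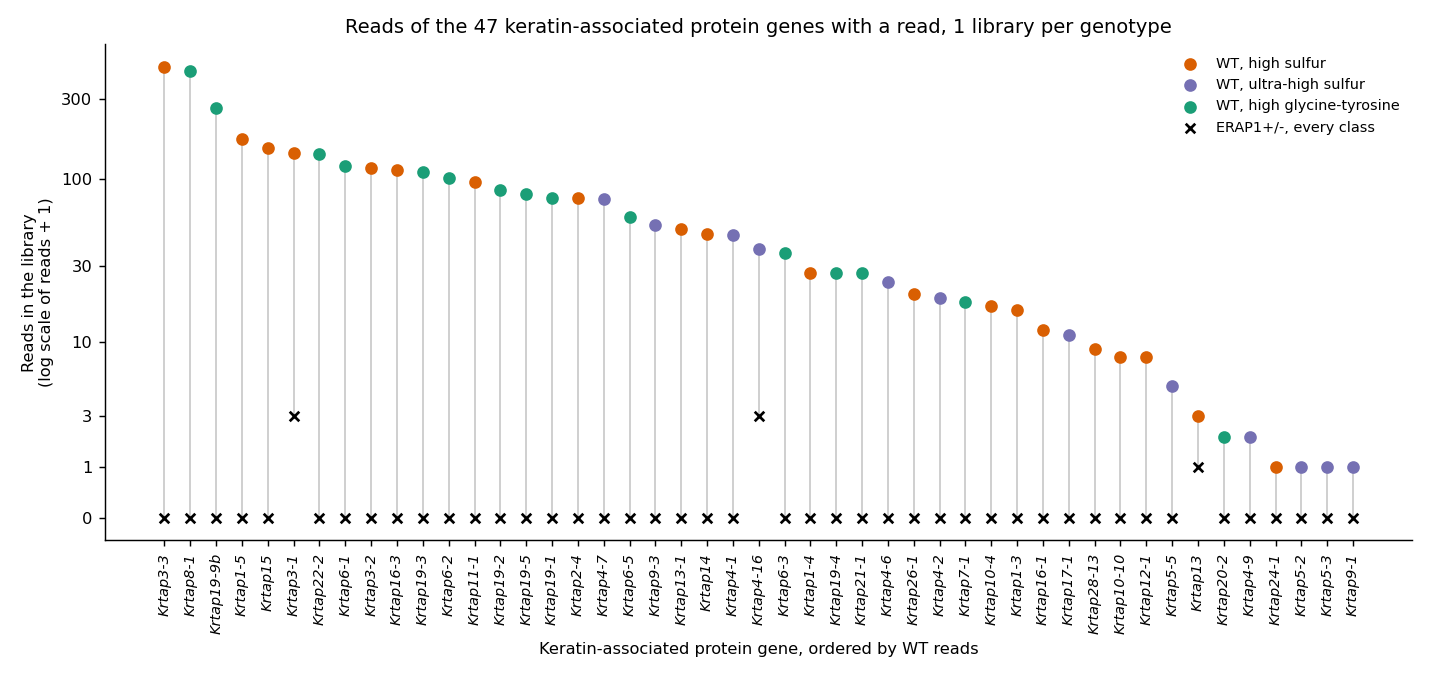
Reads of each keratin-associated protein gene with a read, on a log scale of reads + 1, ordered by WT reads. Coloured points are the WT library, by protein class, and black crosses the library labelled ERAP1+/-. The 47 WT values run from 1 to 467 reads, and 44 of the 47 crosses lie at 0.

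The plot of reads by gene shows a gradual decline in WT and an almost empty ERAP1+/- library. The 2 genes with the most reads held 26.5% of the WT reads of the family, the first 5 held 43.8%, and the first 10 held 62.3%. Reads of the 3′ end were not divided by transcript length, because the method is designed to give 1 tag per transcript whatever its length. By their counting intervals, Krtap3-3 (467 reads, 426 to 511) and Krtap8-1 (441 reads, 401 to 484) overlapped. Krtap19-9b (266 reads, 235 to 300) lay below both and above Krtap1-5 (174 reads, 149 to 202). From Krtap1-5 and Krtap15 (154 reads, 131 to 180) downward, the intervals of the next genes in order overlapped.

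**Figure D2:**
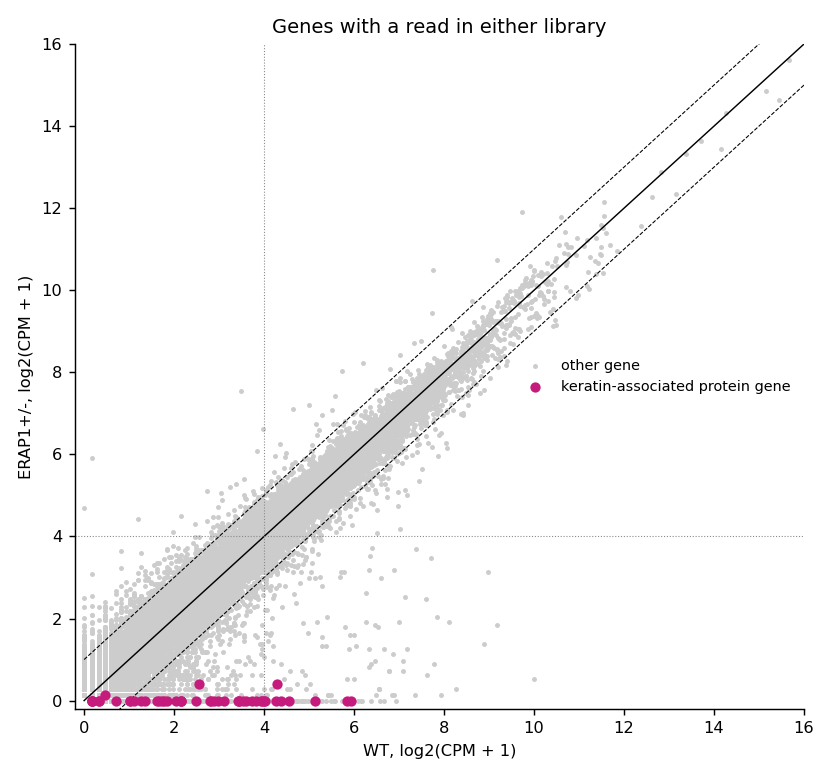
Level of each gene with a read in either library, as log2(CPM + 1), with WT on the horizontal and the library labelled ERAP1+/- on the vertical axis. The solid line marks equal levels, dashed lines a difference of 1, and dotted lines a level of 4. Keratin-associated protein genes (coloured) lie along the bottom edge, from near 0 to 5.93 in WT, while most genes lie along the diagonal.

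High-sulfur proteins as a class hold less cysteine than those of the ultra-high-sulfur class, and both classes were assigned by family number. Single genes depart from this, such as Krtap28-13 of the high-sulfur class at 42.8% cysteine. The high-sulfur class had 22 genes, of which 20 had WT reads and 15 had at least 10 reads. It gave 1558 reads in WT and 4 in ERAP1+/-, an ERAP1+/- level of 0.214% of WT (0.0584% to 0.550%). The reads of Krtap3-3, Krtap3-1 and Krtap3-2 made family 3 the largest single family.

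Krtap3-3, a short cortex protein gene of 99 codons on chromosome 11, had 467 reads in WT and 0 in ERAP1+/-. With the 0 set at 3 reads this is at least 186-fold lower. Krtap3-1 had 143 and 3 reads, 57.1-fold lower (19.1 to 280), and was one of the 3 members read in both libraries. Krtap3-2 had 116 and 0 reads, at least 46.3-fold lower. Together the family 3 genes gave 726 reads in WT, 21.2% of the reads of all members, and 3 in ERAP1+/-.

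The other high-sulfur genes of chromosome 11 with a read belong to families 1, 2 and 16, and Krtap29-1 had no read. Krtap1-5 had 174 and 0 reads, at least 69.4-fold lower, and Krtap2-4 had 77 and 0, at least 30.7-fold lower. Krtap1-4 had 27 and 0 reads, Krtap1-3 had 16 and 0, and Krtap16-1 had 12 and 0. All of these lacked reads in ERAP1+/-, and the bounds of the last 3 ran from at least 4.79-fold to at least 10.8-fold lower because their WT counts were low.

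On chromosome 16 the high-sulfur genes were led by Krtap15 with 154 and 0 reads, at least 61.5-fold lower. Krtap16-3 had 113 and 0 reads and Krtap11-1 had 96 and 0, at least 45.1-fold and 38.3-fold lower. Krtap13-1 had 50 and 0 reads, Krtap14 had 47 and 0, and Krtap26-1 had 20 and 0. Krtap13, with 3 and 1 reads, is too low for a fold. Krtap14 and Krtap15 lie on opposite strands and overlap through older transcripts of the annotation, and whether the counting used strand is not stated, so reads in the overlap may not be separable. Krtap10-4 on chromosome 10 had 17 and 0 reads.

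Ultra-high-sulfur proteins are rich enough in cysteine to form the most densely cross-linked parts of the hair, including its cuticle. Their class had 17 genes, of which 12 had WT reads and 7 had at least 10. It gave 277 reads in WT, 8.08% of the reads of the family, and 3 in ERAP1+/-, a level of 0.905% of WT (0.185% to 2.67%). That interval overlaps the interval of the high-sulfur class. Krtap4-7 had the most reads of the class, 76 and 0, at least 30.3-fold lower, followed by Krtap9-3 with 53 and 0 and Krtap4-1 with 46 and 0. Krtap4-16 had 38 and 3 reads, 15.2-fold lower (4.81 to 76.8), and supplied every ERAP1+/- read of the class. Krtap4-6 (24 and 0), Krtap4-2 (19 and 0) and Krtap17-1 (11 and 0) completed the genes with at least 10 reads, with bounds down to at least 4.39-fold lower.

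High-glycine-tyrosine proteins are the small members in which those 2 residues predominate. All 15 genes of this class had WT reads, 14 had at least 10 reads, and none had a read in ERAP1+/-. The class gave 1593 reads in WT, 46.5% of the reads of the family, and was at least 636-fold lower in ERAP1+/-. Krtap8-1, the only member of its family, had 441 and 0 reads, at least 176-fold lower. Family 19 gave 648 WT reads over 6 genes: Krtap19-9b had 266 and 0 reads, Krtap19-3 had 110 and 0, Krtap19-2 had 86 and 0, Krtap19-5 had 82 and 0, Krtap19-1 had 77 and 0, and Krtap19-4 had 27 and 0. The 6 genes summed to at least a 259-fold lower level.

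Family 6 gave 316 WT reads over 4 genes, at least 126-fold lower. Krtap6-1 had 119 and 0 reads, Krtap6-2 had 102 and 0, Krtap6-5 had 59 and 0, and Krtap6-3 had 36 and 0. Krtap22-2 had 141 and 0 reads, at least 56.3-fold lower, Krtap21-1 had 27 and 0, and Krtap7-1 had 18 and 0. Families 6, 8, 19 and 22 each gave over 100 WT reads and none in ERAP1+/-, as did the high-sulfur families 1, 15 and 16. Of the family 16 reads, 113 were of Krtap16-3, whose protein is 59.3% glycine plus tyrosine.

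**Figure D3:**
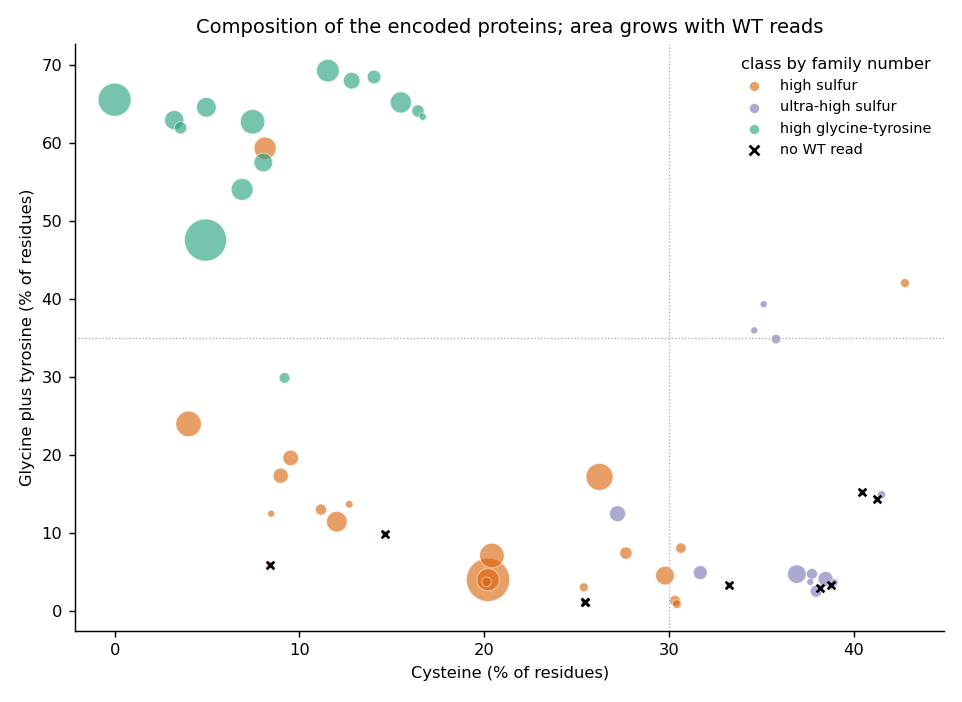
Share of cysteine (horizontal) and of glycine plus tyrosine (vertical) among the residues of the protein translated from each of the 56 genes, coloured by class, with the area of a point growing with its WT reads. Dotted lines mark 30% cysteine and 35% glycine plus tyrosine, and crosses mark the 9 genes without a WT read. The largest points lie at low or middle cysteine shares, and every gene above 35% glycine plus tyrosine with under 30% cysteine had WT reads.

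The composition of the encoded proteins, computed from the annotated coding sequences, followed the classes for most genes. By composition alone, with at least 30% cysteine as ultra-high sulfur and at least 35% glycine plus tyrosine as high glycine-tyrosine, 15 genes were high glycine-tyrosine and had a median of 63.3% glycine plus tyrosine (47.5% to 69.2%) and of 78 residues (57 to 155). The 20 ultra-high-sulfur genes had a median of 37.7% cysteine (30.3% to 42.8%), and the 21 high-sulfur genes 20.1% (4% to 29.8%). The lowest share of the high-sulfur genes, that of Krtap15, is below the 4.92% of the high-glycine-tyrosine gene Krtap8-1. The class of 9 genes changed with this rule, including Krtap31-1 and Krtap31-2, which had no class by family number. Krtap16-3, at 59.3% glycine plus tyrosine, moved to the high-glycine-tyrosine class, and Krtap7-1, at 29.9%, left it. The WT reads became 1466 for high sulfur, 274 for ultra-high sulfur and 1688 for high glycine-tyrosine, so the order of the classes by reads was the same under both rules.

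The 11 genes with 1 to 9 reads summed to 41 reads in WT and 1 in ERAP1+/-, the single read being of Krtap13. The others were Krtap28-13 (9 WT reads), Krtap10-10 and Krtap12-1 (8 each), Krtap5-5 (5), Krtap4-9 and Krtap20-2 (2 each), and Krtap5-2, Krtap5-3, Krtap9-1 and Krtap24-1 (1 each), with no read in ERAP1+/-. The 9 genes without a read were Krtap27-1, Krtap29-1, Krtap31-1, Krtap31-2, Krtap4-8, Krtap4-13, Krtap5-1, Krtap5-4 and Krtap9-5. Families 5, 10 and 12, which are known from the hair cuticle and were grouped after their values were seen, had 40 reads in WT and 0 in ERAP1+/- over 8 genes, 1.17% of the WT reads of all members. Near-identical copies could split reads in the counting, so the last 400 bases of each transcript were cut into words of 75 bases, the read length, and looked up in all other genes. For 49 genes no word was shared, and these held 3356 of the WT reads and all 7 ERAP1+/- reads. Over 50% of words were shared for Krtap4-13 alone (96.0%), and 6 of the 9 genes without a read shared none.

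All 56 genes had a transcript of 1 exon, and position was not used in choosing them. In the GENCODE M21 annotation of the build GRCm38, 24 lie on chromosome 16 between 88610705 and 89571183, a stretch of 960 kb, and 23 on chromosome 11 between 99550130 and 99993994, a stretch of 444 kb. The chromosome 16 genes gave 2077 reads in WT, 60.6% of the reads of the family, and 1 in ERAP1+/-, which is 0.0402% of WT (0.00102% to 0.224%). Those of chromosome 11 gave 1302 reads in WT and 6 in ERAP1+/-, 0.385% of WT (0.141% to 0.840%), and the intervals of both clusters overlap. The remaining genes gave few reads, with 33 and 0 for the 3 genes of chromosome 10, which lie within the gene Tspear, 7 and 0 for the 5 of chromosome 7, and 9 and 0 for Krtap28-13 on chromosome 1.

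**Figure D4:**
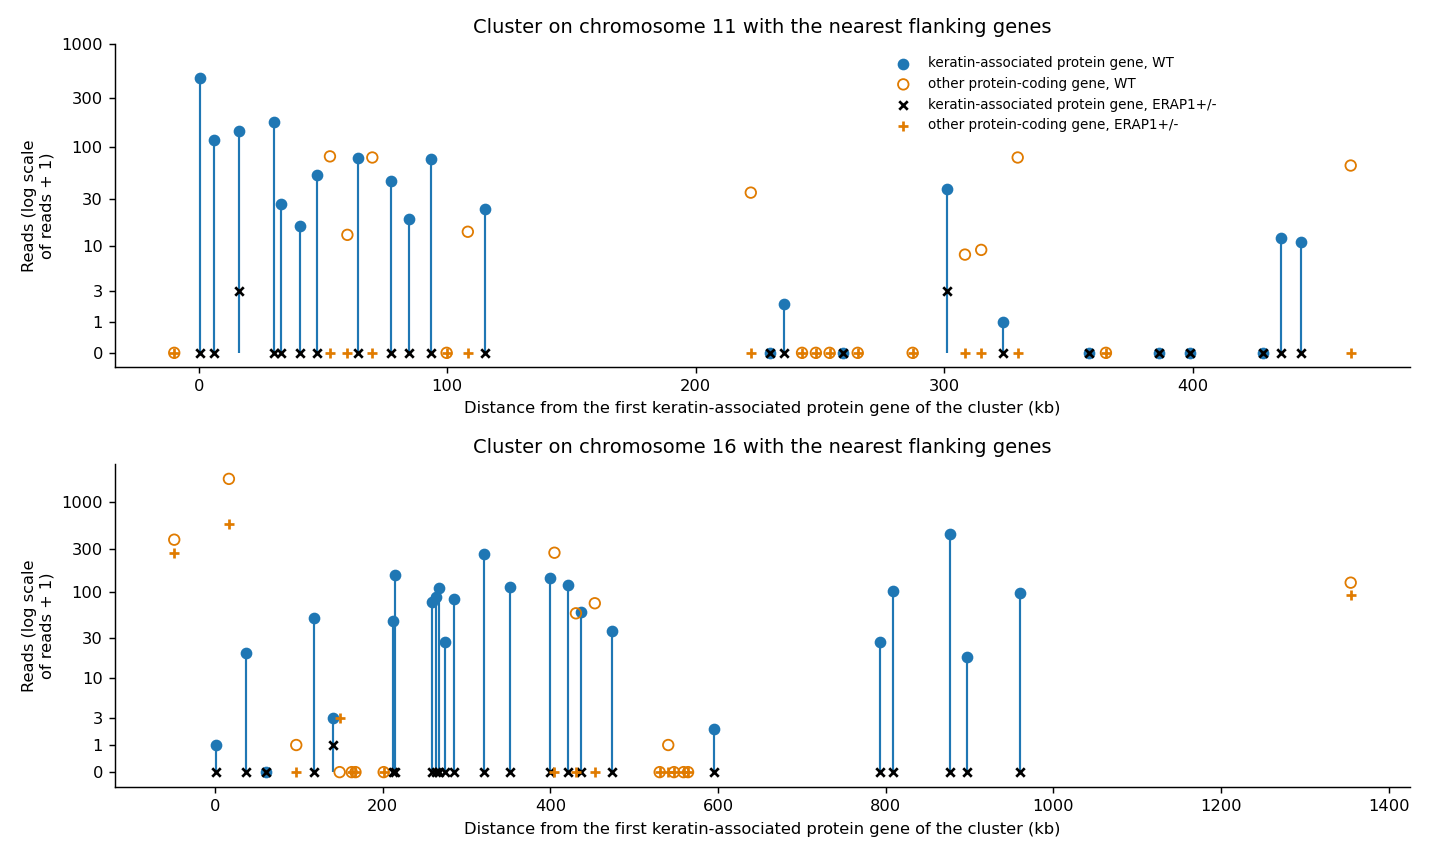
Reads of genes along the clusters on chromosomes 11 (top) and 16 (bottom), on a log scale of reads + 1, by distance from the start of the first keratin-associated protein gene in kb. Filled points and stems are keratin-associated protein genes in WT and open circles other protein-coding genes in WT, with crosses and plus signs for the library labelled ERAP1+/-. The first 12 genes on chromosome 11 all stand above 10 reads in WT, while the 11 genes further along hold 64 WT reads together.

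Along chromosome 11 the WT reads were uneven. The 12 genes from Krtap3-3 to Krtap4-6 all had at least 10 reads and gave 1238 reads in WT and 3 in ERAP1+/-. Of the 11 genes from Krtap4-8 to Krtap17-1, 5 had WT reads and 3 had at least 10, with 64 reads in WT and 3 in ERAP1+/-. This division was made after the values were seen.

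The nearest genes beside the clusters ranged widely. Krt33a, a hair keratin gene beside the chromosome 11 cluster, had 65 and 0 reads, at least 25.9-fold lower, and Krt40, on the other side, had none. Beside the chromosome 16 cluster, Cldn8, a tight junction claudin, had 380 reads in WT and 269 in ERAP1+/-, a ratio of 0.591 (0.504 to 0.693), and Tiam1, an activator of the GTPase Rac, had 126 and 92, a ratio of 0.610 (0.461 to 0.804). Around the chromosome 10 genes, Ube2g2, a ubiquitin-conjugating enzyme, had 454 and 420 reads, a ratio of 0.773 (0.675 to 0.884), and Lrrc3 had 19 and 30, a ratio of 1.32 (0.718 to 2.48). Beside the chromosome 7 genes, Dusp8, a phosphatase of MAP kinases, had 98 and 55 reads, a ratio of 0.469 (0.331 to 0.659), and Ifitm10 had 18 and 3, a ratio of 0.139 (0.0263 to 0.477). Beside Krtap28-13 on chromosome 1, Slc19a3, a thiamine transporter, had 4 and 0 reads and the chemokine Ccl20 had 2 and 36. Of these flanking genes, Krt33a and Slc19a3 were the ones with WT reads and none in ERAP1+/-, and Lrrc3 and Ccl20 had a ratio above 1.

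Sequence in front of the transcription start was not used in choosing the genes either. Promoters in RefSeq (build GRCm38.p6) were found for 51 of the 56 genes. The word TATAAA, the core of the TATA box, was present on the gene strand in the 250 upstream bases of 41 of the 51 (80.4%), against 7.59% of 32851 promoters. It started within the last 50 bases in 34 (66.7%, against 2.63%), at a median position of -31 from the start (-49 to -27). The word was there in 21 of the 34 genes with at least 10 reads and in 13 of the 17 with fewer. The 80 bases before the RefSeq start are shown for the 2 genes with the most WT reads of each class, all on the minus strand, 5′ to 3′, with TATAAA in capitals. On chromosome 11 these are chr11:99550864-99550943 for Krtap3-3, chr11:99581017-99581096 for Krtap1-5, chr11:99644090-99644169 for Krtap4-7 and chr11:99598107-99598186 for Krtap9-3, and on chromosome 16 chr16:89487953-89488032 for Krtap8-1 and chr16:88932265-88932344 for Krtap19-9b.
Krtap3-3: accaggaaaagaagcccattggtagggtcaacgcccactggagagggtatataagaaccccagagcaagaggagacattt
Krtap1-5: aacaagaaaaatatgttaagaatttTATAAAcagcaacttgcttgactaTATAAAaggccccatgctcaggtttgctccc
Krtap4-7: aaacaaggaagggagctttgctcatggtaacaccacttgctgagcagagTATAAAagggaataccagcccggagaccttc
Krtap9-3: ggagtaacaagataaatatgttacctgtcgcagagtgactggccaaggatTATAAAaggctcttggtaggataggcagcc
Krtap8-1: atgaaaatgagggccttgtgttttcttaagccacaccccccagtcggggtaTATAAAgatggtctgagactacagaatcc
Krtap19-9b: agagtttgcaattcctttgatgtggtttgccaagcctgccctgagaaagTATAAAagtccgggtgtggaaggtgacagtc

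In these 80 bases Krtap3-3 held no exact TATAAA, though it held the near match TATATAAG, and only the exact word was counted. The other 5 genes carried TATAAA close to the start, and Krtap1-5 carried it at 2 places. Words of the kind bound by Hoxc13, a homeodomain factor of the hair shaft (TTAATNAA, TTAATNAG, TTAATNGA, TTAATNGG, TTTATNAA, TTTATNAG, TTTATNGA and TTTATNGG on both strands), were in the 250 bases of 26 of the 51 promoters, against 17.2% of all. Some of these words can overlap TATAAA, and without such overlaps the shares were 47.1% and 15.6%. Words of the kind bound by Lef1, a Wnt pathway factor (CTTTGAA and CTTTGTT on both strands), were in 12 (23.5%, against 9.17%). The member promoters were richer in A and T, at a median of 59.6% against 47.6% of bases. Such words are rich in A and T too, and the part of base composition in their counts was not tested. These matches describe letters and show no binding.

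Other genes of the hair follicle were examined from lists chosen by their known roles, all read in the same libraries and against the same background of 8.78% of genes lower and a median log2 ratio of 0.0034. The hair keratins, which form the filaments that the keratin-associated proteins surround, had 1443 reads in WT and 15 in ERAP1+/-, 0.868% of WT (0.485% to 1.44%). Of 16 genes, 11 had at least 10 reads, 10 of these were lower and 9 of them had no ERAP1+/- read. Krt81 had the most reads, 555 and 0, followed by Krt33b (247 and 0), Krt34 (190 and 0), Krt86 (176 and 0) and Krt31 (84 and 0). Krt33a (65 and 0), Krt83 (35 and 2), Krt85 (25 and 0), Krt35 (22 and 0) and Krt39 (12 and 0) were lower too. Krt36 was not lower by the rule, at 18 and 12 reads, and held most of the ERAP1+/- reads of the list. The interval of the whole hair keratin list lies above that of the keratin-associated protein family (0.0685% to 0.352%). Without Krt36, left out after its values were seen, the list had 1425 and 3 reads, 0.176% of WT (0.0362% to 0.515%).

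Genes of the inner root sheath, the layer that guides the growing shaft, had 1032 reads in WT and 14 in ERAP1+/-, 1.13% of WT (0.617% to 1.91%), and 7 of 7 genes with at least 10 reads were lower. Tchh, the trichohyalin that hardens this layer, held all 14 ERAP1+/- reads (507 and 14), while Krt25 (297 and 0) and Krt71 (136 and 0) had none. Keratins of the companion layer and outer root sheath had 2381 and 252 reads, 8.84% of WT (7.73% to 10.1%), and 5 of 5 were lower. Krt6a (996 and 160), Krt6b (750 and 65) and Krt17 (593 and 26) were read in both libraries. The interval of this list lies above those of the hair keratin and inner root sheath lists.

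The regulators of the hair shaft had 687 and 521 reads, 63.3% of WT (56.4% to 71.1%). Foxq1 (452 and 355), Ovol1 (144 and 134) and Lef1 (19 and 14), which also act outside hair, held most of these reads. Of 6 regulators with at least 10 reads, 2 were lower, Dlx3 (28 and 1) and Foxn1 (21 and 9). Msx1 (11 and 8) was among those not lower by the rule. Hoxc13, named after its values were seen, had 9 and 0 reads. Genes of shaft assembly had 10963 and 11568 reads, nearly all from the transglutaminase Tgm3 (10856 and 11560). Without it they had 107 and 8 reads, 6.25% of WT (2.63% to 12.8%), and S100a3 (57 and 4), a calcium-binding protein of the hair cuticle, Tgm1 (22 and 3) and the desmosomal cadherin Dsg4 (13 and 0) were the 3 lower genes of the 4 with at least 10 reads. Melanocyte genes did not share the pattern. They had 14 and 18 reads, 107% of WT (50.5% to 233%), none of the 2 with at least 10 reads was lower, and 5 of 7, Tyr and Tyrp1 included, had no read in either library, while Dct had 8 and 13 and Pmel 6 and 5.

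Markers of other parts of skin and of muscle moved in the same direction as the keratin-associated protein genes. Suprabasal epidermal genes had 28939 and 472 reads, 1.36% of WT (1.24% to 1.49%), with 17 of 17 lower, among them Flg (7952 and 4), Spink5 (4453 and 24) and Krt10 (3922 and 72). Sebaceous gland genes had 1226 and 3 reads, 0.204% of WT (0.0421% to 0.599%), with 6 of 6 lower, among them Scd3 (881 and 1), Awat1 (182 and 0) and Elovl3 (99 and 0). Basal keratinocyte genes had 1408 and 194 reads, 11.5% of WT (9.85% to 13.4%), with 6 of 6 lower and led by Krt14 (623 and 97), Krt5 (418 and 73) and Krt15 (296 and 18). Krt13 (1631 and 94) and Krt4 (1056 and 9), keratins of stratified epithelia that do not cornify, stood together at 3.20% of WT (2.60% to 3.90%). Skeletal muscle genes had 9508 and 195 reads, 1.71% of WT (1.48% to 1.97%), with 12 of 12 lower, among them Ttn (2154 and 26), Acta1 (1490 and 42) and Myh8 (1259 and 1). The part of these tissues in the values of the keratin-associated protein genes was not tested.

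**Figure D5:**
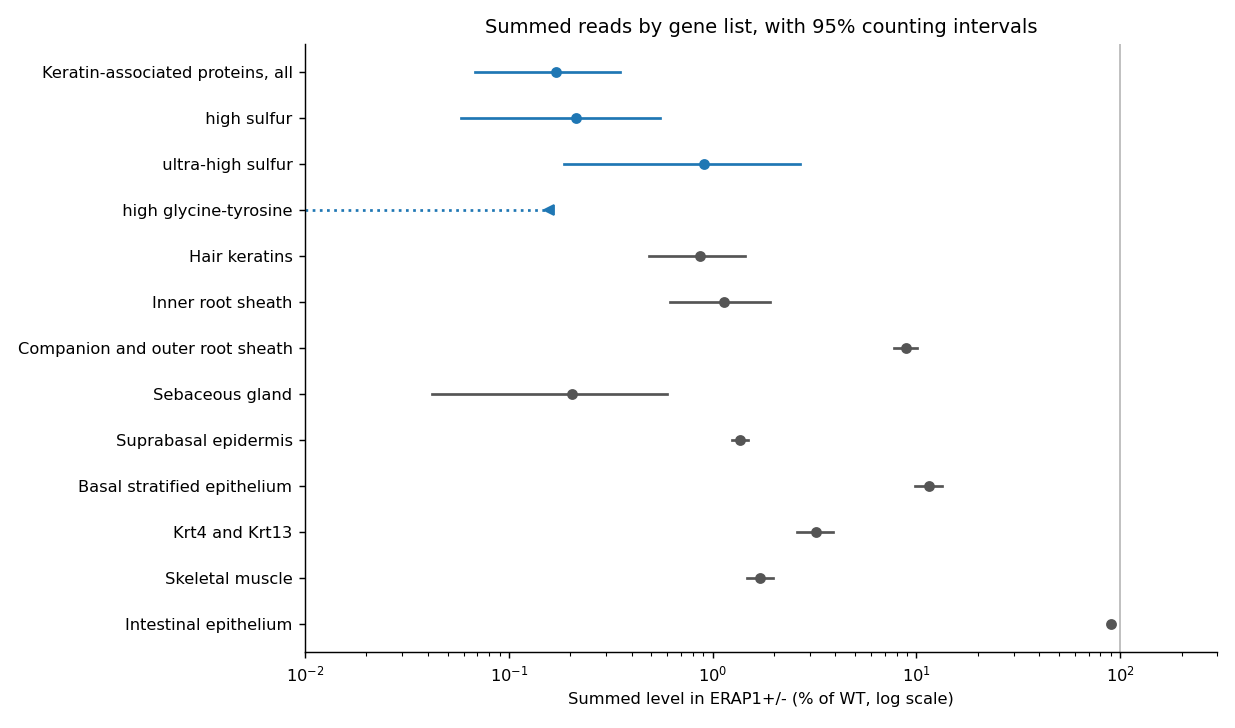
Summed level of each gene list in the library labelled ERAP1+/- as a percentage of WT, on a log scale, with 95% counting intervals as bars. The grey line marks 100%, and the arrow with a dotted line marks the high-glycine-tyrosine class, which had no ERAP1+/- read and is placed at its bound of at least 636-fold lower. Keratin-associated proteins (0.171%) and sebaceous gland genes (0.204%) lie lowest among the lists, hair keratins lie at 0.868%, and intestinal epithelium lies at 89.8%.

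In the plot of lists, the intervals of the whole keratin-associated protein family and of the sebaceous gland genes overlap. Those of the hair keratin, inner root sheath, suprabasal, basal and outer sheath lists lie above the interval of the family. The median log2 ratios, with a count of 0 set at 3 reads, were -4.70 for hair keratins, -3.76 for the inner root sheath, -3.67 for the companion layer and outer root sheath, -0.71 for regulators and -2.75 for assembly genes. They were -7.15 for suprabasal, -3.08 for basal, -5.76 for Krt4 and Krt13, -4.98 for sebaceous and -6.52 for skeletal muscle genes. The melanocyte median was -0.04, or 0.08 with scaling by the total count, and the intestinal epithelial median was -0.32. Since a count of 0 is set at 3 reads, the medians of lists with few reads are drawn toward 0, and the summed levels above are not affected in this way.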

How the data were processed

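Intestinal RNA pooled from 3 mice per genotype was sequenced by the authors with a 3′ mRNA kit (75 bp, single end) as 1 library per genotype. The deposited values are counts, whole numbers of reads per gene symbol without normalization. The paper names STAR with HTSeq-count in one place and Bowtie2 with RSEM, as the submitters' processing notes do with GRCm38, in another, so which made the counts is not known. No per-sample column was left out (0).

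Library sizes were corrected by TMM (edgeR 4.0.16, R 4.3.3), with factors of 0.958 for WT and 1.04 for ERAP1+/-, and counts were scaled to CPM. Mitochondrial and ribosomal RNA genes took 18.0% and 16.7% of reads. A pseudocount of 1 CPM was used on the log2 scale. For ratios, 95% intervals came from the exact binomial conditional on the summed reads (scipy 1.17.1). For bounds, a count of 0 was set at 3 reads (0.386 CPM in WT, 0.322 CPM in ERAP1+/-). These bounds leave out the counting error of the other library and are not 95% limits. Both rules for lower genes were run on simulated counts, with changes set only in genes above a level most members do not reach. That run does not test the rules for those members. No test was run between the genotypes.

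Members and gene lists were chosen with earlier results of these data known. Each member with at least 10 reads is named, with the 3 most-read genes of each list, hair keratins with at least 10 reads and genes flanking the clusters that hold such a member. The flanking genes on chromosomes 1 and 7, Krt20, Dlx3, Foxn1, Msx1, Dsg4 and members with fewer reads were added after their values were seen. Classes were set by family number because no protein table was used, and composition from translated GENCODE M21 coding sequence (biopython 1.88) was added after the data were seen. Alternatives were DESeq2 1.42.0 size factors, the total count, and other pseudocounts, filters and thresholds.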

Additional observations from a re-analysis of the deposited data

How the results depend on the processing

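The number of keratin-associated protein genes past 2-fold at a level of 4 was 8, and it was 39 with no filter on low values and 0 with a level of at least 6 on the log2 scale, which no member reaches. It was 7 with scaling by the total count, which puts Krtap6-1 at 3.97 in WT, and 8 with DESeq2 size factors, a pseudocount of 0.1 or a 4-fold threshold. Among genes with at least 10 reads it was 36 with each scaling and at 4-fold, 30 with at least 20 reads and 39 with at least 5. The summed level in ERAP1+/- stayed between 0.171% and 0.197% of WT over the alternatives, the highest being without Krtap3-3. Of the 36 genes, 0 changed direction, and the largest shift was 0.13 on the log2 scale. Of 12 lists, 1 changed sign, the melanocyte list. Over all genes past the level rule, the share that was lower was 74.1%, or 59.9% with scaling by the total count. No paired analysis was possible because there is only 1 library for each genotype. Depth limits how far a gene with few WT reads can be seen to be lower.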

Other observations

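The clusters also hold 44 protein-coding genes without a Krtap symbol, and their values were not part of the rule. Of these, 25 had no read, 7 had 1 to 9 reads (6 of them with none in ERAP1+/-) and 12 had at least 10. The other gene of the 7, 2310034C09Rik on chromosome 16, had 0 reads in WT and 3 in ERAP1+/-, and was named after its values were seen. Of the 12, 11 had no read in ERAP1+/-, against 1.41% of all genes with at least 10 reads. A gene without ERAP1+/- reads reaches 10 reads only through WT, so this count describes the genes and does not test them. Gm11938, Gm11937 and the member Krtap2-4 each encode 131 residues with 29.8% cysteine and 4.58% glycine plus tyrosine. The 11 held 729 WT reads, with bounds from at least 5.19-fold to at least 109-fold lower. On chromosome 16, Gm10229 had 272 reads in WT and 0 in ERAP1+/-, 1110025L11Rik had 74 and 0, and Gm10228 had 57 and 0. On chromosome 11, Gm11938 had 80 and 0, Gm11562 and Gm11567 each had 78 and 0, Gm11595 had 35 and 0, Gm11563 had 14 and 0, and Gm11937 had 13 and 0. Gm9507 on chromosome 10 and Gm7579 on chromosome 7 each had 14 and 0. These were named after their values were seen. Each of the 11 encodes a protein with at least 15% cysteine or at least 35% glycine plus tyrosine. Most of the inside genes without a read meet this rule too. Some members do not, among them Krtap15 (4% cysteine, 24% glycine plus tyrosine), so the rule does not set the 11 apart.

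The remaining gene of the 12, 2310079G19Rik on chromosome 16, had 1803 reads in WT and 568 in ERAP1+/-, a ratio of 0.263 (0.239 to 0.289). Its protein has 8.65% cysteine and 14.6% glycine plus tyrosine. Members of the same cluster have similar shares, such as Krtap24-1 (8.47% and 12.5%) and Krtap14 (8.98% and 17.4%). 2310079G19Rik lies 14.5 kb from the nearest keratin-associated protein gene, inside the cluster. It was the one gene there with over 3 reads in the library labelled ERAP1+/-.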
